A study of Gallus gallus with 4 samples.

Results

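Genes of the cell cycle and of DNA replication were followed in breast muscle of broiler chickens with high and with low feed efficiency, the weight gained per unit of feed. The members were taken by their symbol on the array platform: cyclins, CDC genes other than CDC25 and CDC42, inhibitors of cyclin-dependent kinases, subunits of the replication machinery, topoisomerases, centromere and spindle checkpoint genes, cohesin and condensin genes, RAD genes and TOB genes. The rule matched 56 features for 53 genes. Of these, 54 features for 52 genes had a value on all 4 arrays, out of 3494 named genes and 31722 features measured there. RAD52, a recombination gene, lacked a value on array 3, and a second feature of CDC5L had a value on 1 array, so neither entered the results. The rule used names and the presence of values under 16, and left out features within 0.005 of 0 on at least 3 arrays. Ratios entered the rule itself in no other way, but its symbols were chosen with earlier results of these data known. With features near 0 kept, there were still 52 members, among 3542 named genes. TOB1 was already known from an earlier look at these data to be among the highest genes of the array.

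The tested muscle came from high-efficiency birds and the comparison muscle from low-efficiency birds, all males of a single broiler line, each fed on its own with corn and soy feed at about 20.5% protein and 3280 kcal in a kg. Gain and feed intake were recorded between 6 and 7 weeks of age, and no treatment was given. Each of 4 two-colour arrays held RNA of a high-efficiency bird in the Cy5 channel against RNA of a low-efficiency bird in the Cy3 channel, by the labels, which were read as 8 birds. Pooling of RNA is neither stated nor denied by the labels. Because 0 arrays had swapped dyes, an effect of the dye and one of the group cannot be told apart. All values are log2 ratios with the median of the array set to 0, and summaries are the mean ± SD of 4 arrays. Positive values are read as higher in the high-efficiency bird, which is likely but not certain: the labels put that bird in channel 2, and ratios are usually formed with channel 2 on top. The numerator dye is not stated, and if it was Cy3, every direction below turns around.

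In a dividing cell, cyclins switch on their kinases in turn, the origin recognition complex and the MCM helicase prepare origins before DNA synthesis, and the sliding clamp PCNA, loaded by replication factor C, holds the polymerases on the template. Condensin then compacts the chromosomes, the spindle checkpoint waits until every kinetochore is attached, and the anaphase-promoting complex starts their separation by marking cyclin B and securin for breakdown. Muscle fibres have left the cell cycle for good, so transcripts of mitosis and DNA synthesis in muscle are usually ascribed to satellite cells and to dividing vascular, connective tissue and blood cells, while many cyclins, kinase inhibitors and repair genes are also transcribed in cells that do not divide.

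Across the series, 39376 to 40278 features per array were measured and 11.7% of the features on all 4 arrays had a gene symbol. Ratios of named genes correlated weakly between any 2 arrays (Pearson's r 0.20 to 0.31, Spearman's rho 0.38 to 0.49) across genes, which are not independent replicates. The deposited ratios had array medians from -0.58 to -0.19, so the zero point of every ratio depends on the centring. The files hold ratios and no signal of single dyes. No level of any gene could therefore be given, the labelled tissue could not be checked against the levels of its markers, and features close to background could not be set aside.

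Most of the cell cycle genes that passed the test were higher in high-efficiency muscle. By limma's moderated test against 0, with Benjamini-Hochberg adjustment over all 3494 named genes, 15 of the 52 rose, 1 fell and 36 did not pass. Among all named genes 18.5% rose and 6.10% fell, 24.6% in all, against 28.8%, 1.92% and 30.8% of the cell cycle genes. The increases were small, from 1.14-fold for CDC40 to 1.79-fold for TOB1, and the decrease, of the atypical cyclin CCNG2, was 1.54-fold. Ratios were above 0 on all 4 arrays for 22 of the 52 genes (42.3%, against 31.1% of all named genes) and below 0 on all 4 for 5 (9.62%, against 15.6%). The median of the 52 mean ratios was 0.08, and of all named genes 0.01. At an unadjusted p under 0.05 in limma, 20 members were higher and 3 lower, against 914 and 407 of the 3494 named genes. With an unmoderated t statistic, 16 and 1 members were called, against 589 and 131 named genes. These are the background for the small role groups below, whose differences from it and from each other were not tested. Each group counts only genes that the name rule matched, and other measured genes of the same process are not in it. In whole tissue, a different number of dividing or other cells and a different amount of RNA per cell cannot be told apart.

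**Figure D1:**
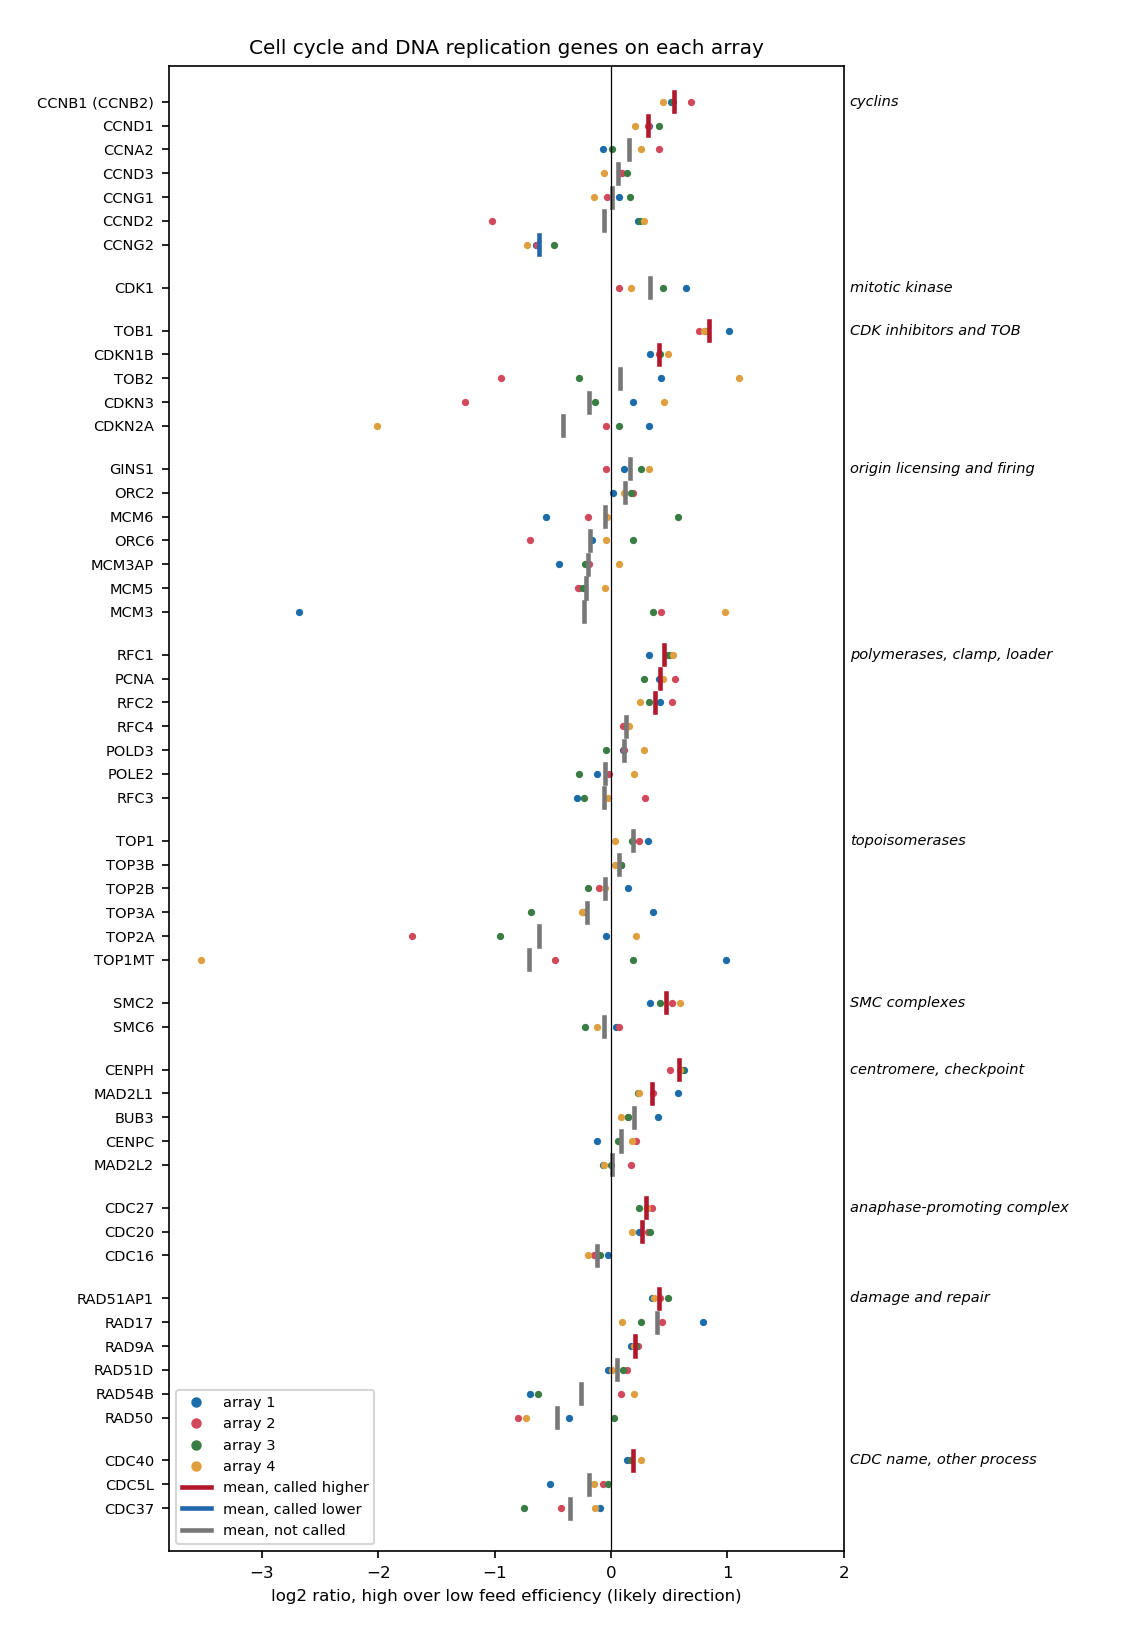
Log2 ratios of high over low feed efficiency (likely direction, array median at 0) of the 52 cell cycle genes, grouped by role, with 1 point per array, coloured by array, and a bar at the mean of the 4 arrays, which is red for the 15 genes called higher, blue for CCNG2, called lower, and grey for the 36 not called. The points of the called genes lie close together, between 0.14 and 1.01 for the higher ones, while CCND2, MCM3, CDKN2A and TOP1MT each have 1 array far to the left.

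The rule matched 7 measured cyclins. Of these, 2 rose, 1 fell and 4 did not pass, where 18.5% of all named genes rose and 6.10% fell. CCNH and CCNB3 were also measured, but the rule did not match them. CCNH is given with the other cell cycle genes below. CCNB3 (named CYCB3 on the platform) did not pass (-0.05 ± 0.31, adjusted p = 0.803). A mitotic B-type cyclin, which activates CDK1 at the entry into mitosis, had the highest ratios, 0.51, 0.68, 0.53 and 0.45 on arrays 1 to 4. This feature is named CCNB2 on the platform, a symbol that the chicken RefSeq gene table gives as an older name of CCNB1. All 4 arrays lay above 0, and the gene was 1.46-fold higher (0.54 ± 0.10, adjusted p = 0.0103). CCND1, a D-type cyclin that carries growth signals to the retinoblastoma protein, stood at 0.33, 0.32, 0.42 and 0.20. It was 1.24-fold higher (0.32 ± 0.09, adjusted p = 0.0233), again with every array above 0.

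CCNG2, an atypical cyclin that accumulates in cells leaving the cycle, moved the other way. Its ratios were -0.65, -0.64, -0.49 and -0.72, so all 4 arrays lay well below 0, and its mean of -0.62 ± 0.10 was the only decrease called among the 52 genes (adjusted p = 0.00892). Its relative CCNG1, a target of p53, stood at 0.01 ± 0.13 with arrays on either side of 0. Within each array CCNG1 exceeded CCNG2 by 0.57 to 0.71, a difference that a shift of the whole array cannot alter (0.63 ± 0.06).

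The remaining cyclins of the rule did not pass. CCNA2, the cyclin of DNA synthesis and early mitosis, had a mean of 0.15 ± 0.22, with 1 array below 0. CCND3 stood at 0.06 ± 0.09 and CCND2 at -0.06 ± 0.64. The D-type cyclins thus differed in their consistency: CCND1 lay above CCND3 by 0.23 to 0.28 on each of the 4 arrays (0.25 ± 0.03), whereas CCND2 was at 0.24, 0.25 and 0.29 on arrays 1, 3 and 4 and at -1.03 on array 2. CDK1, the kinase that B-type cyclins activate (named CDC2 on the platform), was above 0 on every array, at 0.65, 0.07, 0.44 and 0.17. Its spread was wide, and it did not pass (0.33 ± 0.26, 95% interval 0.02 to 0.65, adjusted p = 0.12).

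Of 5 CDKN and TOB genes, 2 rose and 3 did not pass, where 18.5% of all named genes rose and 6.10% fell. TOB1, an antiproliferative protein that binds the CCR4-NOT deadenylase (named TOB on the platform), had the highest ratio of the 52, with 1.01, 0.75, 0.81 and 0.80 on arrays 1 to 4. Every array exceeded any value of the other called genes (0.84 ± 0.12, adjusted p = 0.00791), and TOB1 ranked 27 of 3494. CDKN1B, an inhibitor of cyclin E and cyclin A kinases that marks quiescent cells, stood at 0.33, 0.41, 0.42 and 0.49. It was 1.33-fold higher (0.41 ± 0.06, adjusted p = 0.0116).

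No call was made for the other 3 genes of this kind, whose arrays disagreed in sign. TOB2, the paralogue of TOB1, ranged from -0.94 on array 2 to 1.10 on array 4 (0.08 ± 0.88). CDKN3, a phosphatase that acts on cyclin-dependent kinases, ranged from -1.25 on array 2 to 0.46 on array 4 (-0.19 ± 0.75). CDKN2A, a tumour suppressor locus, had 3 arrays between -0.05 and 0.32 and array 4 at -2.01 (-0.42 ± 1.07). The 95% intervals of their means were wide, from -0.93 to 1.09 for TOB2, -1.05 to 0.67 for CDKN3 and -1.64 to 0.81 for CDKN2A, and each holds differences of 1.5-fold in either direction.

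The genes that prepare and fire replication origins, counted with MCM3AP, gave 0 calls in 7, against 24.6% of all named genes. At an unadjusted p under 0.05 in limma 0 were higher and 1 lower, and 0 were called with an unmoderated t statistic. MCM5, a subunit of the replicative helicase, was below 0 on every array, at -0.27, -0.29, -0.24 and -0.05. Its mean of -0.21 ± 0.11 narrowly missed the threshold (adjusted p = 0.0723). Of its partners in the helicase, MCM6 ran from -0.55 on array 1 to 0.58 on array 3 (-0.05 ± 0.47), and MCM3 was at 0.43, 0.36 and 0.98 on arrays 2 to 4 but at -2.68 on array 1 (-0.23 ± 1.66). In the origin recognition complex, ORC2 was slightly above 0 on every array (0.12 ± 0.08) and ORC6 ran from -0.69 to 0.19 (-0.18 ± 0.37). GINS1, a subunit of the complex that activates the helicase, had a mean of 0.16 ± 0.16. MCM3AP, an MCM3-binding protein that also takes part in the export of mRNA, had a mean of -0.20 ± 0.21. The median of the 7 means was -0.18.

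At the replication fork itself, 3 of 7 genes rose and 0 fell, against 18.5% and 6.10% of all named genes. At an unadjusted p under 0.05 in limma 4 were higher and 0 lower, and with the t statistic also 4 and 0. PCNA, the sliding clamp of the DNA polymerases, stood at 0.41, 0.55, 0.29 and 0.45, 1.34-fold higher (0.42 ± 0.11, adjusted p = 0.0164). RFC1, the large subunit of the clamp loader, stood at 0.33, 0.47, 0.50 and 0.53 and was 1.37-fold higher (0.46 ± 0.09, adjusted p = 0.0125). RFC2, a small subunit, stood at 0.42, 0.53, 0.32 and 0.25 and was 1.30-fold higher (0.38 ± 0.12, adjusted p = 0.0233). The clamp and these subunits of its loader were therefore above 0 on every array and overlapped with each other in range.

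Other subunits of the loader and the polymerases were closer to 0. RFC4 had nearly the same value everywhere, 0.12, 0.10, 0.14 and 0.16 (0.13 ± 0.02, adjusted p = 0.0897), and was called with the t statistic only. RFC3 was above 0 on array 2 alone (-0.06 ± 0.26). POLD3, an accessory subunit of polymerase delta, stood at 0.11 ± 0.13, and POLE2, a subunit of polymerase epsilon, at -0.05 ± 0.20. Within arrays, RFC1 exceeded RFC4 by 0.21 to 0.37 (0.33 ± 0.08) and RFC3 by 0.18 to 0.73 (0.52 ± 0.24), so subunits of the same complex did not share a ratio. PCNA likewise exceeded MCM5 by 0.50 to 0.83 on the 4 arrays (0.63 ± 0.15). These pairs were chosen after the values had been seen and are given as a description.

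None of the 6 topoisomerases, which relieve the twisting of DNA, was called by limma, against 24.6% of all named genes. There was 1 higher and 0 lower at an unadjusted p under 0.05 in limma, and 1 higher and 0 lower with the t statistic. TOP1 was above 0 on every array, at 0.32, 0.24, 0.18 and 0.04 (0.19 ± 0.12, adjusted p = 0.103). TOP3B was the gene called with the t statistic, with a ratio of only 0.07 ± 0.02. TOP2B, the form present in cells that do not divide, stood at -0.05 ± 0.14 and TOP3A at -0.20 ± 0.43. TOP2A, the form made by dividing cells and a common marker of proliferation, was at -0.04, -1.71, -0.96 and 0.22 (-0.62 ± 0.88), with arrays on either side of 0. The mitochondrial TOP1MT was the most variable of the 52 genes, from -3.52 on array 4 to 0.99 on array 1 (-0.71 ± 1.97).

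Of 5 centromere and spindle checkpoint genes, 2 rose and 3 did not pass, where 18.5% of all named genes rose and 6.10% fell. Of 2 SMC genes, 1 rose and 1 did not pass. CENPH, a protein of the inner kinetochore, stood at 0.63, 0.50, 0.61 and 0.59. It was second to TOB1 among the 52 genes, higher on every array (0.58 ± 0.06, adjusted p = 0.00791), with a rank of 78 of 3494. SMC2, a core subunit of condensin (named SMC2L1 on the platform), stood at 0.33, 0.53, 0.43 and 0.59, 1.39-fold higher (0.47 ± 0.11, adjusted p = 0.0146). MAD2L1, the checkpoint protein that holds back anaphase, stood at 0.58, 0.36, 0.23 and 0.24. It passed (0.35 ± 0.16, adjusted p = 0.0436), with array 1 well above the other 3, and did not pass with the t statistic (adjusted p = 0.084).

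The other centromere, checkpoint and SMC genes did not pass. BUB3, another checkpoint protein, was above 0 on every array, with array 1 highest at 0.40 and the others from 0.09 to 0.15 (0.20 ± 0.14, adjusted p = 0.124). CENPC, which ties the kinetochore to centromeric chromatin, was at 0.09 ± 0.15. MAD2L2, which serves a translesion polymerase as well as the anaphase-promoting complex, had a mean of 0.01 ± 0.11 from 2 features of opposite sign, at 0.18 ± 0.08 and -0.16 ± 0.24. SMC6, of the SMC5/6 repair complex, also had features on either side of 0, at 0.03 ± 0.12 and -0.15 ± 0.28, and a mean of -0.06 ± 0.14. These were the only members with 2 measured features. Of 3 CDC-named genes of the anaphase-promoting complex, 2 rose, against 18.5% of all named genes. They were the subunit CDC27 (0.31, 0.35, 0.24 and 0.31) and the activator CDC20 (0.24, 0.31, 0.33 and 0.18). Their means were 0.30 ± 0.05 and 0.27 ± 0.07 (adjusted p = 0.0172 and 0.0279). The subunit CDC16 was below 0 on every array but did not pass (-0.12 ± 0.07, adjusted p = 0.174), and within arrays CDC27 exceeded it by 0.34 to 0.51.

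Of 6 genes of the DNA damage response, 2 rose and 0 fell, against 18.5% and 6.10% of all named genes. RAD51AP1, a homologous recombination protein, stood at 0.36, 0.43, 0.49 and 0.37, 1.33-fold higher (0.41 ± 0.06, adjusted p = 0.0115). RAD9A, a subunit of the checkpoint clamp, had a smaller but very even ratio of 0.17, 0.23, 0.22 and 0.20 (0.20 ± 0.03, adjusted p = 0.0338). RAD17, which loads that clamp, was above 0 on every array but spread from 0.10 to 0.79 (0.39 ± 0.30, adjusted p = 0.106). RAD51D, which also acts in recombination, stood at 0.06 ± 0.08. The lowest ratios of this group belonged to RAD54B (-0.26 ± 0.47) and to RAD50, part of the complex that senses broken ends, which was at -0.36, -0.80, 0.03 and -0.73 (-0.47 ± 0.38, adjusted p = 0.121).

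The CDC symbols of the rule also cover genes of other processes. Of 3 such genes, 1 rose, against 18.5% of all named genes. CDC40, a splicing factor, rose with 0.14, 0.17, 0.18 and 0.26 (0.19 ± 0.05), at the edge of the threshold with an adjusted p of 0.0499. The splicing factor CDC5L (-0.19 ± 0.22) and the HSP90 co-chaperone CDC37 (-0.35 ± 0.30) were below 0 on all 4 arrays without passing, with adjusted p of 0.247 and 0.138.

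Because all genes of an array share its zero point, ranks among the named genes do not depend on the centring. Ordered by mean ratio, 10 of the 52 genes (19.2%) lay in the highest 10% of the named genes and 3 (5.77%) in the lowest 10%. The highest 10% held TOB1, CENPH, the B-type cyclin, SMC2, RFC1, PCNA, CDKN1B, RAD51AP1, RAD17 and RFC2. The lowest 10% held CCNG2, TOP2A and TOP1MT, of which only CCNG2 had arrays that agreed. The highest 25% held 15 members (28.8%) and the lowest 25% held 7 (13.5%). RAD9A and CDC40, although called higher, ranked 911 and 977.5 of 3494, outside the highest 25%. These shares are a description, since the list was chosen with earlier results of these data known.

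**Figure D2:**
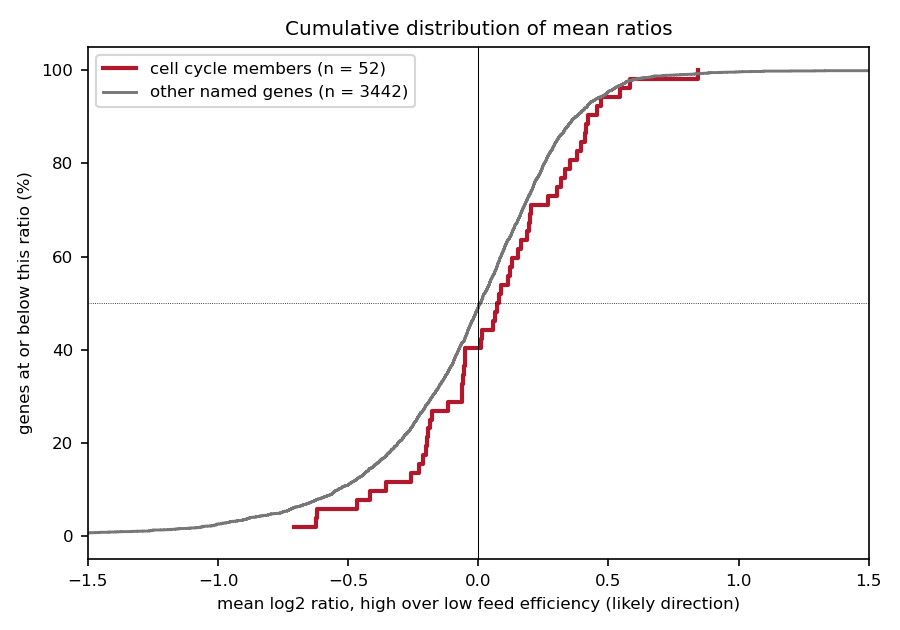
Percent of genes at or below each mean log2 ratio of high over low feed efficiency (likely direction, array median at 0), for the 52 cell cycle genes in red and the other 3442 named genes in grey. The red line runs to the right of the grey one over most of the range, with medians of 0.08 and 0.01; 25 of the other genes lie beyond the axis.

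A mean ratio over 1.5-fold in either direction was found for 4 of the 52 genes, 7.69%, a share near the 10.6% of all named genes. Of these, TOB1 and CCNG2 were called and TOP2A and TOP1MT were not. The median SD between arrays was 0.14 over the 52 genes and 0.17 over all named genes, a difference that was not tested. An SD over 0.5 was found in 7 members (13.5%) and in 20.4% of named genes. They were TOP1MT, MCM3, CDKN2A, TOP2A, TOB2, CDKN3 and CCND2, and 6 of these 7 means were below 0, as were 77.7% of the means of all named genes with such an SD. Below that SD, 33.3% of the member means and 41.6% of all means were negative. Of the 28 deposited values behind the 7 variable genes, 4 (14.3%, in TOB2 and CDKN3) equalled, to 3 decimals, the log2 of a ratio of whole numbers up to 10, as did 4.26% of the values of the other members. The same shares were 15.7% and 3.38% over all named features of high and low SD. What produces such values was not tested.

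**Figure D3:**
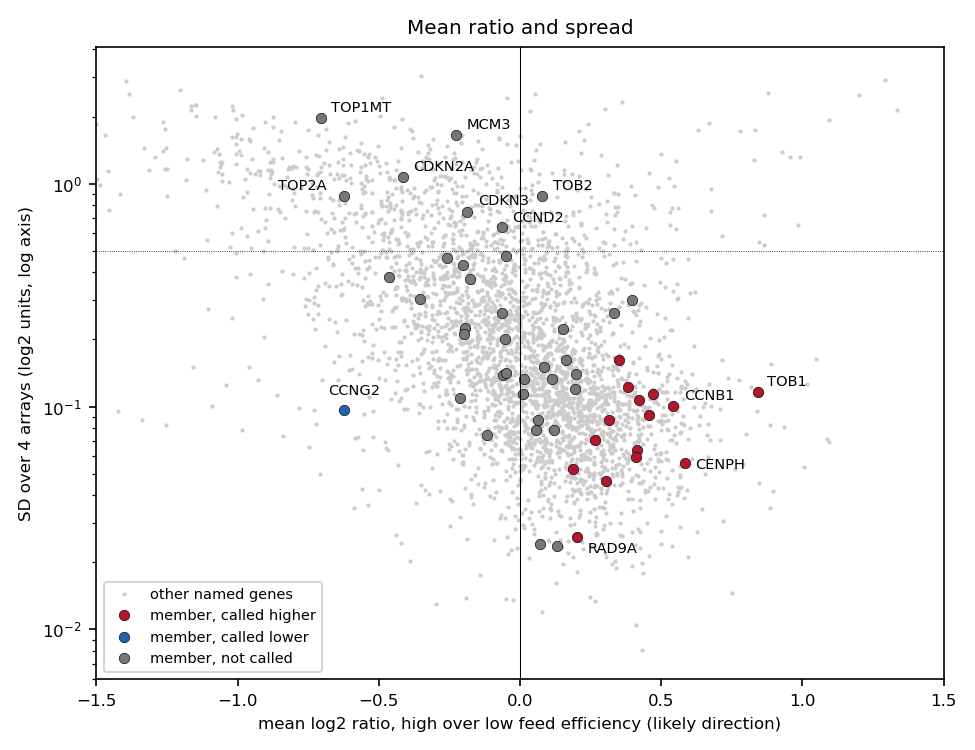
Mean log2 ratio of high over low feed efficiency (likely direction, array median at 0) on the horizontal axis and SD over the 4 arrays, on a log scale, on the vertical axis, with cell cycle genes as large points (red called higher, blue called lower, dark grey not called) and other named genes in light grey; the dotted line marks an SD of 0.5 and genes beyond the horizontal range are not drawn. The called members have SDs from 0.03 to 0.16, and 6 of the 7 members above the dotted line have means below 0.

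Most increases were not independent of where the zero point was put. With the least variable 25% of the features at 0, which lowered every gene by 0.13, 8 members were higher and 3 lower, against 8.01% and 9.82% of all named genes (17.8% in all). The 8 were TOB1, CENPH, the B-type cyclin, SMC2, RFC1, PCNA, CDKN1B and RAD51AP1. The 3 were CCNG2 and, newly called there, CDC16 (-0.25, adjusted p = 0.0382) and MCM5 (-0.34, adjusted p = 0.0366). On the deposited ratios every mean was lower by 0.44. The arrays shifted unevenly, with medians of -0.186, -0.486, -0.577 and -0.515 on arrays 1 to 4, so the spread between arrays changed too. TOB1, for example, stood at 0.83, 0.27, 0.24 and 0.28. On these ratios, limma called 0 members higher and 14 lower, against 0.258% and 32.7% of all named genes (32.9% in all). At an unadjusted p under 0.05 in limma, 1 member was higher, against 20 of the 3494 named genes. There, 5 of the 15 increases stayed above 0 (TOB1 0.40, CENPH 0.14, the B-type cyclin 0.10, SMC2 0.03 and RFC1 0.02), 10 turned below 0, and CCNG2 remained lower (-1.06, adjusted p = 0.0177).

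**Figure D4:**
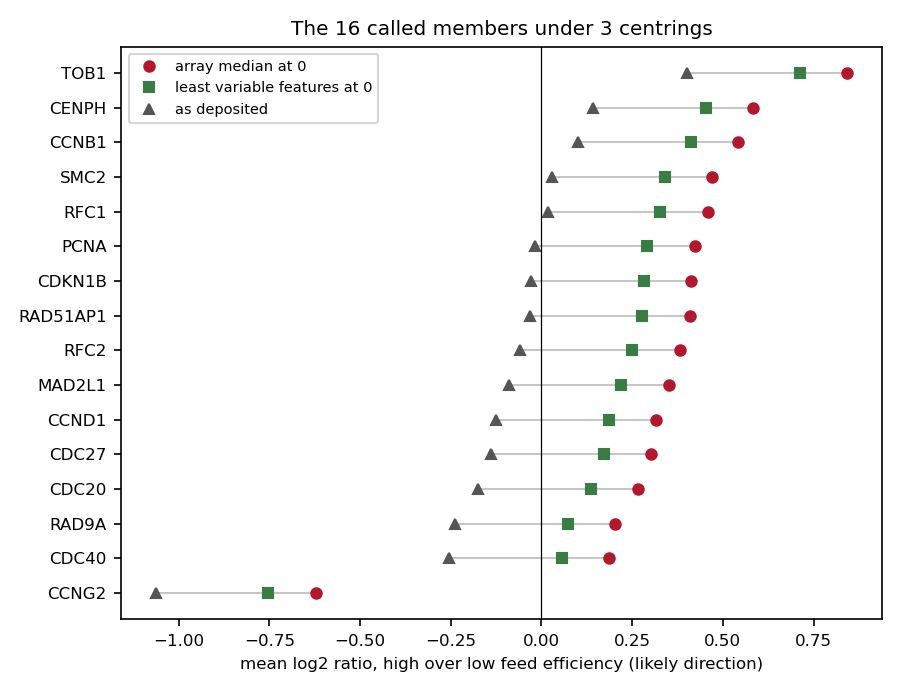
Mean log2 ratio of high over low feed efficiency (likely direction) of the 16 called members under 3 choices of the zero point: array median (red circles), least variable features (green squares) and values as deposited (grey triangles). CCNG2 is below 0 under each choice, TOB1, CENPH, CCNB1 (CCNB2 on the platform), SMC2 and RFC1 are above 0 under each, and the other 10 turn below 0 as deposited.

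Fewer calls were made from 3 arrays. Without array 1, 8 members were still called by limma (7 higher), and without array 4 there were 4 (3 higher). Without array 2 or array 3 there were 0. Calls over all named genes numbered 404, 198, 4 and 5 in the same order. At an unadjusted p under 0.05 in limma, 19 and 17 of the 52 members passed without array 2 and without array 3. Of all 3494 named genes, 1058 and 1055 did. TOB1, CENPH, the B-type cyclin and CCNG2 were the 4 that held without array 1 and without array 4, and also when the 31722 features were fitted in place of genes. Their means moved little when an array was left out, between 0.79 and 0.87 for TOB1, 0.57 and 0.61 for CENPH, 0.50 and 0.575 for the B-type cyclin and -0.67 and -0.59 for CCNG2.

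Other genes of the same processes, from a list that the name rule does not reach, showed a similar balance without a higher rate of calls. Of 77 measured, 14 rose and 2 fell, 18.2% and 2.60%, against the 18.5% and 6.10% of all named genes, with a median of 0.03. The highest called were the microtubule protein CKAP2 (0.57 ± 0.12, adjusted p = 0.011), RRM2, the ribonucleotide reductase subunit that limits nucleotide supply in DNA synthesis (0.53 ± 0.14, adjusted p = 0.0151), and the mitotic motor named KIF4A on the platform (0.49 ± 0.17, adjusted p = 0.022). The survivin gene BIRC5, whose product guides the Aurora B kinase, was at 0.36 ± 0.06. Increases were also called for the repair genes BRCA1 (0.49 ± 0.26), NBN (0.45 ± 0.15), XRCC2 (0.33 ± 0.07), PARP1 (0.29 ± 0.07), ERCC3 (0.27 ± 0.09) and FANCL (0.23 ± 0.09). The remaining calls were ANAPC5 of the anaphase-promoting complex (0.32 ± 0.11), CCNH of the CDK-activating kinase (0.29 ± 0.04), the kinase NEK6 (0.25 ± 0.08) and SKP2, which directs the breakdown of the CDKN1B protein (0.25 ± 0.05).

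Against this, NUF2, an outer kinetochore protein (named CDCA1 on the platform), fell 2.06-fold, with -1.14, -0.92, -1.16 and -0.95 on arrays 1 to 4 (-1.04 ± 0.12, adjusted p = 0.00725). On each array it lay 1.43 to 1.77 below CENPH, so these 2 kinetochore genes did not share a direction. This pair, too, was chosen after the values had been seen. The kinetochore genes NDC80 (-0.24 ± 0.54) and SPC25 (0.10 ± 0.10) did not pass. TACC3, a spindle protein, also fell (-0.29 ± 0.04, adjusted p = 0.0187). The lowest mean of the list, HMMR at -1.18 ± 1.04, rested on arrays that disagreed in sign and did not pass. MKI67, the usual marker of dividing cells, named after its values were seen, was above 0 on every array, at 0.66, 0.17, 0.17 and 0.17, and did not pass (0.29 ± 0.24, adjusted p = 0.134). Array 1 stood apart, and without it the mean was 0.17 (adjusted p = 0.094). With the least variable features at 0 the counts of this list of 77 were 3 higher and 5 lower, against 8.01% and 9.82% of all named genes. As deposited they were 0 and 21, against 0.258% and 32.7%, with 0 higher at an unadjusted p under 0.05 in limma.

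Markers of the cells in which such genes may be transcribed moved in different directions. A list of 41 proliferation markers, 12 of whose 20 measured genes were also members, had 7 higher and 1 lower. These were 35% and 5%, against 18.5% and 6.10% of all named genes. The median was 0.16, and the range ran from -1.04 for NUF2 to 0.54 for the B-type cyclin. Every call of this list was already counted above: the B-type cyclin, SMC2, PCNA, MAD2L1 and CDC20 as members, and RRM2, BIRC5 and NUF2 among the other cell cycle genes. Its shares are therefore not a separate observation. With the least variable features at 0 this list had 5 higher and 2 lower, against 8.01% and 9.82% of all named genes, with a median of 0.03. As deposited, limma called 0 higher, also at an unadjusted p under 0.05, and 2 lower, with a median of -0.28. Of all named genes, 0.258% were called higher and 32.7% lower as deposited. Of 10 measured satellite cell and myoblast genes, 4 rose and 1 fell (40% and 10%, against the same shares of all named genes), with a median of 0.18. MYF6 (0.58 ± 0.11), MYOD1 (0.53 ± 0.04), PAX7, the defining transcription factor of satellite cells (0.34 ± 0.09), and VCAM1 (0.29 ± 0.08) rose, and CXCR4 fell (-0.51 ± 0.22). The other 5 did not pass: PAX3 (0.52 ± 0.44), MYOG (0.08 ± 0.28), MET (0.02 ± 0.40), MYF5 (-0.06 ± 0.32) and SDC4 (-0.44 ± 0.56). MYOD1 and MYF6 are transcribed in fibres as well. The zero point moved this list too, to 2 higher (MYF6 and MYOD1) and 1 lower and a median of 0.05 with the least variable features at 0. As deposited it had 0 higher by limma, also at an unadjusted p under 0.05, 1 lower and a median of -0.26. The medians of all named genes under these 2 other zero points were -0.12 and -0.43, and the shares called are those given with the proliferation list.

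Over all named genes, 18.5% rose and 6.10% fell, with a median of 0.01. Of 14 leukocyte genes, 4 fell (28.6%) and 0 rose, with a median of -0.28. At an unadjusted p under 0.05 in limma 0 were higher and 7 lower, against 914 and 407 of the 3494 named genes. With the t statistic 0 were higher and 1 lower (CD83), against 589 and 131. The 4 that fell in limma were JCHAIN (-0.73 ± 0.29), SPI1 (-0.54 ± 0.29), CD83 (-0.50 ± 0.04) and LCP1 (-0.25 ± 0.10), and CD247 was highest at 0.17 ± 0.19. Of 19 fibroblast and matrix genes, 10.5% rose and 21.1% fell, with a median of -0.11. POSTN (0.57 ± 0.04) and DCN (0.28 ± 0.12) rose. THBS2 (-1.22 ± 0.50), TCF21 (-0.89 ± 0.36), OGN (-0.46 ± 0.11) and COL6A1 (-0.34 ± 0.04) fell. With the t statistic POSTN was higher and OGN and COL6A1 were lower, while DCN, THBS2 and TCF21 were not called. Of 9 endothelial genes, FLT4 rose (0.33 ± 0.12) and 0 fell, with 1 lower at an unadjusted p under 0.05, 0 calls with the t statistic, a median of -0.03 and CLDN5 lowest (-0.28 ± 0.23). The globin HBA1 rose (0.43 ± 0.02) among 3 measured erythroid genes, of which HBZ was lowest (-0.80 ± 0.91). Under the same 2 other zero points (least variable features, then deposited values), leukocyte genes had 6 and 9 lower, with medians of -0.41 and -0.72, and fibroblast genes 7 and 10 lower, with medians of -0.24 and -0.55. The endothelial medians were -0.16 and -0.47 and the erythroid ones -0.52 and -0.83. All named genes had medians of -0.12 and -0.43 there, with 9.82% and 32.7% called lower. The part of these cell types in the ratios of the cell cycle genes was not tested.

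**Figure D5:**
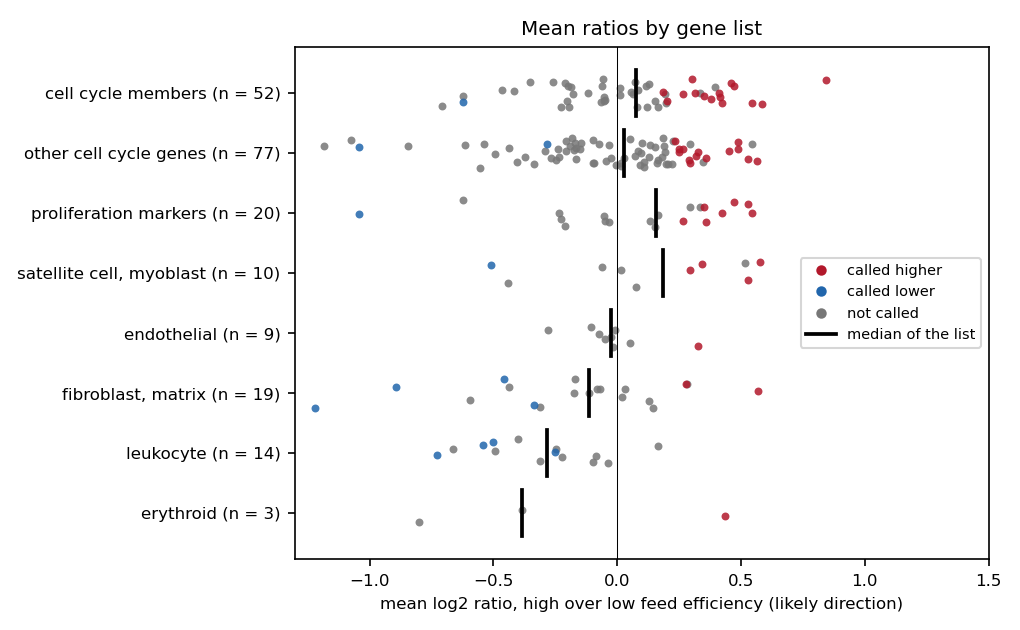
Mean log2 ratios of high over low feed efficiency (likely direction, array median at 0), 1 point per gene, for the 52 cell cycle genes, the 77 other cell cycle genes and 6 marker lists. The proliferation list shares 12 genes with the first row and further genes with the second. Red points were called higher, blue lower and grey not called, and black bars mark the median of each list. The medians run from -0.39 for 3 erythroid genes and -0.28 for leukocyte genes to 0.16 for proliferation and 0.18 for satellite cell and myoblast genes.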

How the data were processed

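The authors deposited 1 value per feature and array for 45220 features, taken from their range and symmetry as log2 dye ratios. The sources used here do not name the software, background correction, normalization or numerator dye. Values of 16 or more, a ceiling, were treated as not measured, and 160 features within 0.005 of 0 on at least 3 arrays were left out. A platform table named 4391 features, and 410 older symbols, 9 of them members, were replaced where RefSeq (GRCg7b) lists them under 1 gene only. That table was used for names only. Each array was centred on its median, features of a gene were averaged, and an intercept-only model was fitted to all 3494 genes with limma 3.58.1 in R 4.3.3 (lmFit, eBayes; two-sided, Benjamini-Hochberg, threshold 0.05). On simulated data with 100 changed genes, it recovered 62% of changes of 1.5-fold and 73% of changes of 2-fold. Each simulation also gave 10 false calls, a larger share of its calls than the 0.05 that the threshold aims at. Changes under 1.5-fold were not simulated, while the member increases called here began at 1.14-fold. In the data 861 genes were called, more than the number changed in the simulation. The 95% intervals are limma's, for each gene alone. The p-values measure the spread between 4 arrays, whose number limits the precision. The members, gene lists, role groups and pairs were chosen with earlier results of these data known. All members are named. Of other lists, each called gene and the highest and lowest are named, plus MKI67, CCNB3, NDC80, SPC25 and all measured satellite cell and myoblast genes. Alternatives covered centring, scaling, quantile normalization, features near 0, variance moderation, the t statistic, array weights, thresholds, arrays required and each array left out. No promoter or protein sequences were used here.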

Additional observations from a re-analysis of the deposited data

Results flagged for a closer look

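In 4 of the 52 cell cycle genes, 1 array stood apart from the other 3 by the gap to its nearest neighbour relative to the range. CCND2 was at -1.03 on array 2, against 0.24 to 0.29 on the others. CDKN2A was at -2.01 on array 4, against -0.05 to 0.32. MCM3 was at -2.68 on array 1, against 0.36 to 0.98. TOP3B was at 0.036 on array 4, against 0.082 to 0.087. Without that array, the means of CCND2, CDKN2A and MCM3 were 0.26, 0.12 and 0.59 in place of -0.06, -0.42 and -0.23, and none of them passed (adjusted p = 0.103, 0.481 and 0.108). Among the other genes named, MKI67 was at 0.659 on array 1, against 0.171 to 0.173, and its mean without that array was 0.17 in place of 0.29. RRM2 was at 0.32 on array 2, against 0.58 to 0.61, and LCP1 at -0.41 on array 1, against -0.21 to -0.18. Chance flags about 1 in 20 groups of this size. The share was 7.69% of the members and 6.35% of all named genes, and 3 different arrays were involved in the 4 members.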

How the results depend on the processing

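The 16 member calls were all kept with arrays scaled to equal median absolute deviation, with the median over features and with array weights. Without replicate 1, 2, 3 or 4, calls ranged from 0 to 8 of the members, 0 to 5 of the other cell cycle genes and 4 to 404 of all named genes, and the members' median from 0.0808 to 0.118. With features fitted in place of genes, calls numbered 4, 2 and 232. With the least variable features at 0, the members' median was -0.0553 and 8 of the other cell cycle genes were called. As deposited the members' median was -0.37. All named genes had medians of -0.12 and -0.43 under these 2 centrings. Ratios that turned below 0 as deposited, each called under at least 1 of these centrings, were CCND1 (-0.13), CDC20 (-0.17), CDC27 (-0.14), CDC40 (-0.25), CDKN1B (-0.0275), MAD2L1 (-0.0902), MAD2L2 (-0.43), PCNA (-0.0188), RAD51AP1 (-0.032), RAD51D (-0.39), RAD9A (-0.24), RFC2 (-0.0605), ANAPC5 (-0.12), BIRC5 (-0.0835), CCNH (-0.15), ERCC3 (-0.17), FANCL (-0.21), NEK6 (-0.19), PARP1 (-0.15), SKP2 (-0.19), XRCC2 (-0.11), DCN (-0.16), FLT4 (-0.12), PAX7 (-0.10), VCAM1 (-0.15) and HBA1 (-0.00725). CDC40, at the threshold, was called under 4 of 16 alternatives. The test was already paired by array, because each ratio sets the high-efficiency channel against the low-efficiency channel of the same array. The labels give a single group of arrays and no further pairing.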
